A study of Rattus norvegicus with 5 samples.

Results

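The NMDA receptor subunits are the genes Grin1, Grin2a, Grin2b, Grin2c and Grin2d. Their members here were chosen by gene symbol: all probe sets, the groups of short oligonucleotides that together measure a transcript, whose single symbol in the platform annotation is one of these names. This gave 11 probe sets, 4 for Grin1, 2 each for Grin2a, Grin2c and Grin2d and 1 for Grin2b, for 5 of the 4736 genes that the arrays measure by name. The series holds total RNA from rat hippocampus on 5 single-colour arrays, with every sample labelled P5. Of these samples, 2 belong to the control diet group, 2 to the fetal alcohol exposed group and 1 to the isocaloric diet group, the feeding control of alcohol studies. The sample titles do not say which animals were fed the diets. The labels give no strain, sex, alcohol dose, exposure time or diet composition, and do not say whether a sample is 1 animal or a pool, so the spread between arrays of a group may be technical.

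NMDA receptors are glutamate-gated, calcium-permeable channels that open only when glutamate and a co-agonist are bound and the membrane is depolarised enough to relieve a magnesium block. Each channel combines the obligatory GluN1 subunit, encoded by Grin1, with GluN2 subunits encoded by Grin2a to Grin2d, and the GluN2 type sets the channel's kinetics and magnesium block. In the rodent forebrain GluN2B and GluN2D are known as the early subunits. GluN2A appears later, and GluN2C is best known from the cerebellum. Ethanol inhibits NMDA receptors, which is one reason that their subunits are studied after alcohol exposure.

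The deposited values are intensities on a linear scale, already level between arrays, with a median per array from 49.3 to 56.0. Differences are given on the scale log2(intensity + 10.605), so they understate the change of a dim probe set. Of the 11 probe sets, 9 passed the intensity filter, which a probe set meets with a mean log2 value equal to an intensity of 33.4. Both Grin2a probe sets lay under it. Probe sets differ in how well they bind, so the level of one is not set against that of another. Among 6 tested hippocampal and forebrain markers Nrgn measured 1536 and 1546 under control diet, and Lhx2 440 and 493. The transcription factor genes Neurod1 and Neurod2, from the same list, measured 241.2 and 250.9, and 184.6 and 150.4. Camk2a and Slc17a7, markers of mature excitatory neurons, lay under the filter, Slc17a7 below the offset of 10.605 on all 5 arrays.

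**Figure D1:**
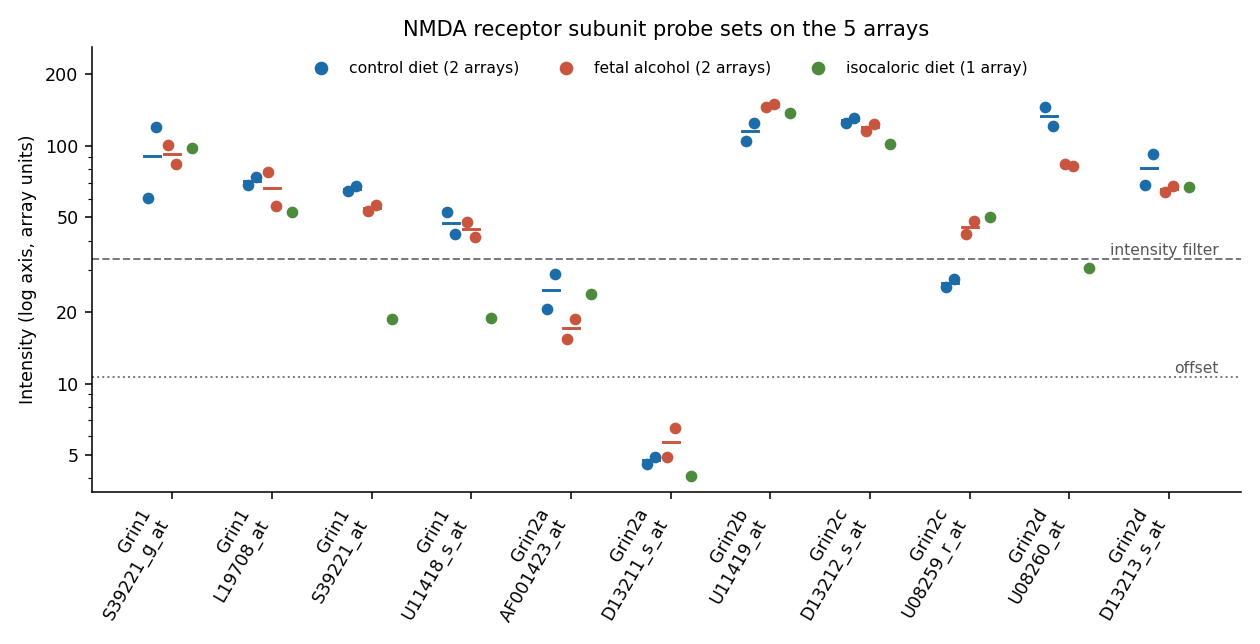
Intensity (log axis) of the 11 NMDA receptor subunit probe sets on each of the 5 arrays; short bars are the means of the 2 control diet and of the 2 fetal alcohol arrays, the dashed line is the intensity that meets the filter and the dotted line the offset. Grin2d U08260_at runs from 146.3 to 30.7 and Grin1 S39221_at from 68.0 to 18.7, each lowest on the isocaloric array, while Grin2b U11419_at stays between 104.6 and 150.0.

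The promoters of 3 members are shown, the only ones for which a window was found. They are RefSeq windows of build GRCr8, from 250 bases before the annotated start to 50 after it, 5′ to 3′ on the gene's strand, and of the 5 members these 3 matched by symbol; Grin2a and Grin2b did not. Capitals mark matches, on either strand, to the GC box GGGCGG bound by Sp factors, to the site GCGNGGGCG of the early growth response family and to the cyclic AMP response element TGACGTCA. The windows lie on the minus strand at chr3:28528705-28529004 for Grin1, chr10:101005089-101005388 for Grin2c and chr1:105481187-105481486 for Grin2d.
Grin1: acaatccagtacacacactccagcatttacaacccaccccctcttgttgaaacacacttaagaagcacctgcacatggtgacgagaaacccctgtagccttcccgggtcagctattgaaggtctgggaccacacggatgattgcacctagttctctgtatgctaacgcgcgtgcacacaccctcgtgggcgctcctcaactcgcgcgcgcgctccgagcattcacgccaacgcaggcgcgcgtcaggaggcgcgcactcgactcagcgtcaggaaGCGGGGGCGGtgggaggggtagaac
Grin2c: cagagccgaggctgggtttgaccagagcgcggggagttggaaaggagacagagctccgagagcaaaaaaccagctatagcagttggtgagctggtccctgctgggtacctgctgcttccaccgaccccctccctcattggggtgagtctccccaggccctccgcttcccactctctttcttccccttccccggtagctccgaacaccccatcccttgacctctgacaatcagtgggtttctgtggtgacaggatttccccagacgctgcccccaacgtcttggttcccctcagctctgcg
Grin2d: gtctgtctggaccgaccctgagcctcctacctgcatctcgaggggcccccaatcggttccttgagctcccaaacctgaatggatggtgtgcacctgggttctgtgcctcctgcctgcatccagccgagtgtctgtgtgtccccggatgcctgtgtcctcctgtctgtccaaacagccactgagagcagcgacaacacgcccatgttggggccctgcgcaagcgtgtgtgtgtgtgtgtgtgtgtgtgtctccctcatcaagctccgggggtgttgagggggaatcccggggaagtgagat
The Grin1 window holds 1 GC box and 1 early growth response site, which overlap in the stretch GCGGGGGCGG, and the Grin2c and Grin2d windows hold none of the 3 motifs. Over 27457 promoter windows of 300 bases, 34.9% hold a GC box, 5.29% the early growth response site and 1.91% the cyclic AMP response element. The share of G and C was 59.7% for Grin1, 60.3% for Grin2c and 60.7% for Grin2d, against a median of 52.3% over all windows. Grin1 had 25 CpG dinucleotides and Grin2c and Grin2d 11 each, against a median of 7. A match is a sequence description and not a measured binding site.

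Grin2d, the subunit of slow, weakly magnesium-sensitive channels found in young brain and in interneurons, had the widest spread of the members. Its probe set U08260_at measured 146.3 and 121.4 under control diet, 84.2 and 82.7 after fetal alcohol and 30.7 with the isocaloric diet. The 3 groups did not overlap: control diet was highest, fetal alcohol lay between and isocaloric diet was lowest. The mean was 133.9 ± 17.6 (SD, n = 2) for control diet and 83.5 ± 1.0 (SD, n = 2) for fetal alcohol. The second Grin2d probe set, D13213_s_at, measured 68.6 and 92.2 under control diet, 64.1 and 68.1 after fetal alcohol and 67.2 with the isocaloric diet. Both fetal alcohol arrays lay below both control diet arrays there too, but by less than the control diet arrays differed from each other, and the isocaloric array lay among the fetal alcohol arrays.

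The 2 Grin2d probe sets thus parted on the isocaloric array. The within-array log2 ratio of U08260_at over D13213_s_at was 0.99 and 0.36 under control diet, 0.34 and 0.25 after fetal alcohol and -0.91 with the isocaloric diet. The order of U08260_at therefore does not hold for every measurement of the gene. By the array maker's naming, sets ending in _s_at include probes that match several related transcripts.

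Grin1, the subunit that every NMDA receptor needs, had 4 probe sets that did not share one pattern. Probe set S39221_at measured 64.4 and 68.0 under control diet, 53.3 and 56.7 after fetal alcohol and 18.7 with the isocaloric diet, again in 3 groups without overlap. U11418_s_at measured 52.6 and 42.4 under control diet, 48.0 and 41.2 after fetal alcohol and 18.8 with the isocaloric diet. Here control diet and fetal alcohol overlapped and the isocaloric array alone was low. L19708_at measured 68.8 and 74.2 under control diet, 77.7 and 55.9 after fetal alcohol and 52.6 with the isocaloric diet, which was the lowest by a small margin.

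The brightest Grin1 probe set, S39221_g_at, measured 60.3 and 120.7 under control diet, 101.2 and 84.1 after fetal alcohol and 97.8 with the isocaloric diet. Its control diet arrays, with a mean of 90.5 ± 42.7 (SD, n = 2), enclosed all the others. Its name shares an accession with S39221_at, yet the log2 ratio of the first over the second was -0.08 and 0.74 under control diet, 0.81 and 0.49 after fetal alcohol and 1.89 with the isocaloric diet. So 3 of the 4 Grin1 probe sets were lowest on the isocaloric array and the brightest was not. Of all probe sets tested, 37.5% were lower there than on both control diet arrays, and 31.5% lower than on both fetal alcohol arrays.

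Grin2b, the main early forebrain GluN2 subunit, has 1 probe set. U11419_at measured 104.6 and 125.5 under control diet, 146.0 and 150.0 after fetal alcohol and 137.7 with the isocaloric diet. The means were 115.0 ± 14.8 (SD, n = 2) for control diet and 148.0 ± 2.8 (SD, n = 2) for fetal alcohol. All 3 other arrays lay above both control diet arrays, and fetal alcohol and isocaloric diet differed by less than the control diet arrays did from each other.

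Grin2a, the subunit of the faster mature receptors, was dim. AF001423_at measured 20.5 and 29.0 under control diet, 15.4 and 18.7 after fetal alcohol and 23.8 with the isocaloric diet. The fetal alcohol arrays were lower, by a gap smaller than that between the control diet arrays. The other set, D13211_s_at, lay between 4.1 and 6.5, below the offset on every array, where values have no useful order. In a fit without the filter, AF001423_at had a log2 difference between fetal alcohol and control diet of -0.35 ± 0.23 (SE, limma adjusted p = 0.952).

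Grin2c, the subunit known from cerebellar granule cells, also gave 2 patterns. U08259_r_at measured 25.6 and 27.6 under control diet, 42.7 and 48.5 after fetal alcohol and 50 with the isocaloric diet. Control diet was thus lowest without overlap, and the isocaloric array lay just above the fetal alcohol arrays. D13212_s_at measured 125.0 and 131.5 under control diet, 115.5 and 124.2 after fetal alcohol and 101.9 with the isocaloric diet, the opposite order with smaller steps. The suffix _r_at marks a set for which the maker relaxed its rules of probe choice. The 3 cerebellar and hindbrain markers on the array summed to 175.1 and 160.2 under control diet, 171.5 and 290.3 after fetal alcohol and 244.1 with the isocaloric diet. Of these, Gabra6, a marker of cerebellar granule cells, lay under the filter. The calcium-binding protein genes Calb1 and Pvalb, which hippocampal neurons also express, had log2 differences from control diet of 0.52 ± 0.32 and 0.27 ± 0.27 for fetal alcohol, and of 0.76 ± 0.39 and 0.33 ± 0.33 for isocaloric diet. By array, Calb1 measured 104.3 and 93.0 under control diet, 103.9 and 204.8 after fetal alcohol and 174.0 with the isocaloric diet. Pvalb measured 36.7 and 40.3, then 37.8 and 61.5, and 50.9. Of the fetal alcohol arrays only replicate 2 thus lay above both control diet arrays, while both did for Grin2c U08259_r_at. The mean differences point the same way as U08259_r_at and not as D13212_s_at, and the part of Calb1 and Pvalb in the Grin2c values was not tested.

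Setting the fetal alcohol samples against control diet asks whether subunit transcripts differ after alcohol exposure before birth. Over all 5244 probe sets limma found none past an adjusted p of 0.05 (0.0%), and so none of the 9 tested member probe sets; at an unadjusted p under 0.05 there were 87 higher (1.66%) and 207 lower (3.95%), among them 1 member each way. The member that was lower was Grin2d U08260_at, with a log2 difference of -0.61 ± 0.23 (SE, 95% interval -1.14 to -0.09, adjusted p = 0.788). The member that was higher was Grin2c U08259_r_at, with 0.59 ± 0.24 (0.05 to 1.14, adjusted p = 0.82). Grin2b U11419_at had 0.34 ± 0.23 (-0.18 to 0.87, adjusted p = 0.961). Grin2d D13213_s_at and Grin1 S39221_at had -0.24 ± 0.24 and -0.23 ± 0.23, and the other 4 lay between -0.10 and 0.09. The 95% intervals of these 4 reached from -0.66 to 0.81 at the widest. With 2 arrays against 2, larger differences did not pass either. The glycine transporter gene Slc6a9, which is not a member, had -1.31 (limma adjusted p = 0.488). The size of change that these arrays could detect was not tested.

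In this comparison 6 of the 9 member probe sets did not overlap between the groups, against 34.5% of all probe sets tested, with 4 lower (17.7%) and 2 higher (16.8%). With a difference of at least 1.5-fold also required, 1 was lower (3.91%) and 1 higher (1.54%). The median over the 9 was -0.09, beside 0.00 over all probe sets. Of these differences, those of Grin1 S39221_g_at, L19708_at and U11418_s_at changed sign when single arrays were left out. Without control diet replicate 1 the difference of Grin2d D13213_s_at was -0.42 and that of Grin2b U11419_at 0.22, and without control diet replicate 2 that of D13213_s_at was -0.048. With an offset of 50, Grin2c U08259_r_at had 0.32 and Grin1 S39221_at -0.15. The 3 comparisons share arrays, so their values are given side by side and not as independent support.

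**Figure D2:**
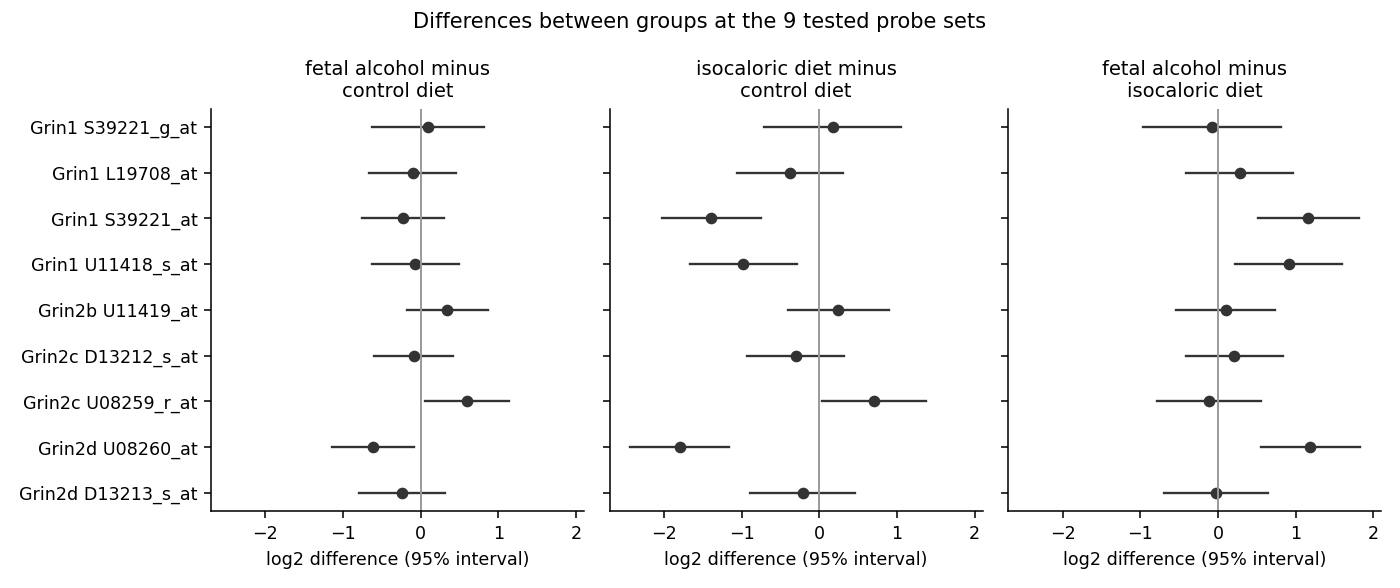
Log2 difference with its 95% interval (limma) for the 9 tested member probe sets in the 3 comparisons. Against control diet the fetal alcohol values lie between -0.61 and 0.59, and the isocaloric values reach -1.80 for Grin2d U08260_at and -1.39 for Grin1 S39221_at, with none past an adjusted p of 0.05.

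Isocaloric diet against control diet, the comparison of the groups without alcohol, rests on 1 array against 2, and the spread of the isocaloric group was taken to be that of the other groups. The largest differences of the members were here. Grin2d U08260_at had a log2 difference of -1.80 ± 0.28 (SE, 95% interval -2.44 to -1.16), the 2nd smallest p of 5244, and an adjusted p of 0.27. Grin1 S39221_at had -1.39 ± 0.28 (-2.03 to -0.75, adjusted p = 0.354) and U11418_s_at -0.98 ± 0.30 (-1.67 to -0.29, adjusted p = 0.581). Grin2c U08259_r_at had 0.70 ± 0.29 (0.04 to 1.37, adjusted p = 0.683). The sizes depend on the offset: with 50 these 4 differences were -1.18, -0.76, -0.50 and 0.38. For Grin2d D13213_s_at the difference was -0.21, with -0.40 and -0.026 when control diet replicate 1 or 2 was left out, and Grin2b U11419_at had 0.24, or 0.12 without control diet replicate 1 and 0.36 without replicate 2.

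None of the 5244 probe sets passed (0.0%), with 285 lower (5.43%) and 72 higher (1.37%) at an unadjusted p under 0.05; of the 9 members 3 were among the lower and 1 among the higher. Outside the control diet range lay 8 of 9, against 75.8% of all probe sets. By at least 1.5-fold 3 were lower (8.39%) and 1 higher (4.02%), and by at least 2-fold 2 were lower (1.83%) and 0 higher (0.439%). The median over the 9 was -0.30, beside 0.02 over all probe sets. The call on Grin2d U08260_at turned on single arrays. Without fetal alcohol replicate 1 its adjusted p was 0.0404 and without fetal alcohol replicate 2 0.0379; in both cases only the control diet pair informed the spread. In these fits 11 and 13 of all 5244 probe sets passed, against 0 with all arrays. Over all alternatives its adjusted p ran from 0.0379 to 1.0, with log2 differences from -2.08 to -1.18.

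Fetal alcohol was also set against that same single isocaloric array. Grin2d U08260_at had 1.19 ± 0.28 (SE, 95% interval 0.55 to 1.83), Grin1 S39221_at 1.16 ± 0.28 (0.52 to 1.81) and U11418_s_at 0.91 ± 0.30 (0.22 to 1.60). Their limma adjusted p-values were 0.986, 0.986 and 0.998, and with an offset of 50 the differences were 0.73, 0.61 and 0.46. No probe set passed (0.0%), and 140 were higher (2.67%) and 81 lower (1.54%) at an unadjusted p under 0.05, with 3 of 9 members among the higher. No overlap with the isocaloric value was found for 7 of 9, against 59.9% of all, with 6 higher (31.5%) and 1 lower (28.4%). By at least 1.5-fold 3 were higher (5.03%) and 0 lower (3.83%), and by at least 2-fold 2 were higher (0.706%). The other 6 members had differences from -0.11 to 0.28. For Grin2b U11419_at the difference was 0.10, with an interval of -0.54 to 0.74.

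The order control diet above fetal alcohol above isocaloric diet, with no overlap, held for 3 of the 9 member probe sets, Grin2d U08260_at, Grin1 S39221_at and Grin2c D13212_s_at, against 5.02% of all probe sets tested. The reverse order held for 1, Grin2c U08259_r_at, against 3.81%. No member gene had all of its probe sets in either order. These shares are a description, since several of the sets measure the same gene.

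The balance between subunits was followed as within-array log2 ratios of the brightest probe set of each gene, in which the scaling of an array largely cancels. The size of such a ratio depends on the probes, and its change between arrays shows unequal change and not which partner moved. Grin2d over Grin2b was 0.45 and -0.04 under control diet, -0.72 and -0.78 after fetal alcohol and -1.84 with the isocaloric diet. The difference from control diet was -0.95 for fetal alcohol and -2.05 for isocaloric diet, with no overlap between groups. This ratio uses Grin2d U08260_at, and with the mean of both Grin2d sets the fetal alcohol difference was -0.77. The isocaloric minus control diet difference of the other Grin2d set, D13213_s_at, was -0.21, against -1.80 for U08260_at. Grin2a over Grin2b was -1.89 and -1.78 under control diet, -2.59 and -2.45 after fetal alcohol and -2.11 with the isocaloric diet. Grin2c over Grin2b was 0.24 and 0.06, then -0.31 and -0.25, and -0.40.

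All 3 ratios to Grin2b were therefore lower on both fetal alcohol arrays than on both control diet arrays, and all 3 share the Grin2b value, which was higher there. The exact 2-sided permutation test gave p = 0.333 for each, the smallest that 2 arrays against 2 allow (0.583 after adjustment over the 7 ratios). The Grin2a ratio rests on a dim probe set and the offset: with an offset of 1 its difference was -0.86 and with 50 it was -0.42. For Grin2c over Grin2b the difference was -0.43 with the brightest set and -0.091 with the mean of both Grin2c sets. Of the ratios to Grin1, Grin2d over Grin1 was 1.15 and 0.01 under control diet, -0.24 and -0.02 after fetal alcohol and -1.39 with the isocaloric diet. Grin2b over Grin1 was 0.70 and 0.05, then 0.49 and 0.76, and 0.45, so the groups overlapped with the brightest Grin1 set. Grin2c over Grin1 differed by -0.18 between fetal alcohol and control diet. The wide spread of Grin1 S39221_g_at on control diet enters all 4 ratios to Grin1. Without control diet replicate 1 and then replicate 2, the difference was 0.57 and -0.076 for Grin2b over Grin1, 0.23 and -0.59 for Grin2c, -0.14 and -1.28 for Grin2d, and -0.17 and -0.71 for Grin2a, so for Grin2b and Grin2c the sign turned on a single array. With the mean over the tested sets of each gene, the differences over Grin1 were 0.42 for Grin2b, 0.33 for Grin2c and -0.35 for Grin2d. The exact permutation p was 0.333 for each. For isocaloric minus control diet Grin1 S39221_g_at had 0.17 and S39221_at -1.39, so the isocaloric ratios to Grin1 depend on the Grin1 set.

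**Figure D3:**
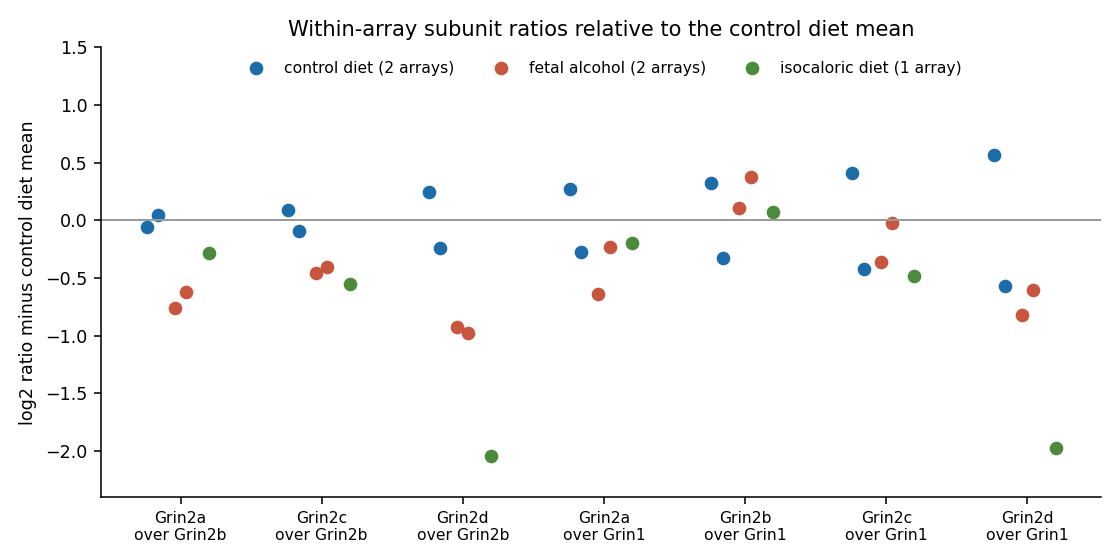
Within-array log2 ratios of subunit probe sets on the 5 arrays, each shown minus its control diet mean, with points for the arrays. The 3 ratios over Grin2b lie below the control diet arrays on both fetal alcohol arrays, and Grin2d U08260_at over Grin2b differs by -2.05 on the isocaloric array. The other Grin2d set, D13213_s_at, had an isocaloric minus control diet difference of -0.21 by itself.

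To see which transcripts had the same pattern over the 5 arrays, probe sets were ranked by the root mean square difference of their mean-centred log2 values from that of a member. For each gene the tested probe set with the widest range was used, if that range was at least 1 on the log2 scale, which left Grin1 S39221_at (1.43) and Grin2d U08260_at (1.93). Grin1 U11418_s_at also had a range over 1 (1.11) but was not ranked, since S39221_at stood for that gene. Closest to Grin1 S39221_at was Tubb5 AB011679_at, a beta-tubulin, at 0.063, with 528.8 and 528.3 under control diet, 393.7 and 433.1 after fetal alcohol and 182.9 with the isocaloric diet. Next came Gabbr1 AB016161cds_i_at (0.109), of the GABA-B receptor, and Plcb3 M99567_at (0.121), a phospholipase C. Closest to Grin2d U08260_at were 2 more Gabbr1 probe sets, AB016160_g_at (0.13) and AB016160_at (0.141), and Adap1 AJ007422_s_at (0.147), an adaptor with an ArfGAP domain. AB016160_at measured 997.1 and 944.1 under control diet, 551.4 and 724.7 after fetal alcohol and 269.5 with the isocaloric diet.

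Probe sets of Adap1, Tubb5 and Gabbr1 were split on the isocaloric array, as those of Grin1 and Grin2d were. The second Adap1 probe set had an isocaloric minus control diet difference of 0.09 against -1.41 for the first, and the second Tubb5 set -0.28 against -1.48. The fourth Gabbr1 set had -0.09, and the second Plcb3 set was under the filter. Grin1 S39221_at and Grin2d U08260_at differed from each other by 0.22, more than either did from its 3 closest sets. That was less than Grin2d U08260_at and D13213_s_at of the same gene, at 0.618. Over all pairs of tested member probe sets the measure ran from 0.134 (Grin2c D13212_s_at and Grin2d D13213_s_at) to 0.94 (Grin2c U08259_r_at and Grin2d U08260_at). With 5 arrays the measure is a description and rests largely on the isocaloric array.

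**Figure D4:**
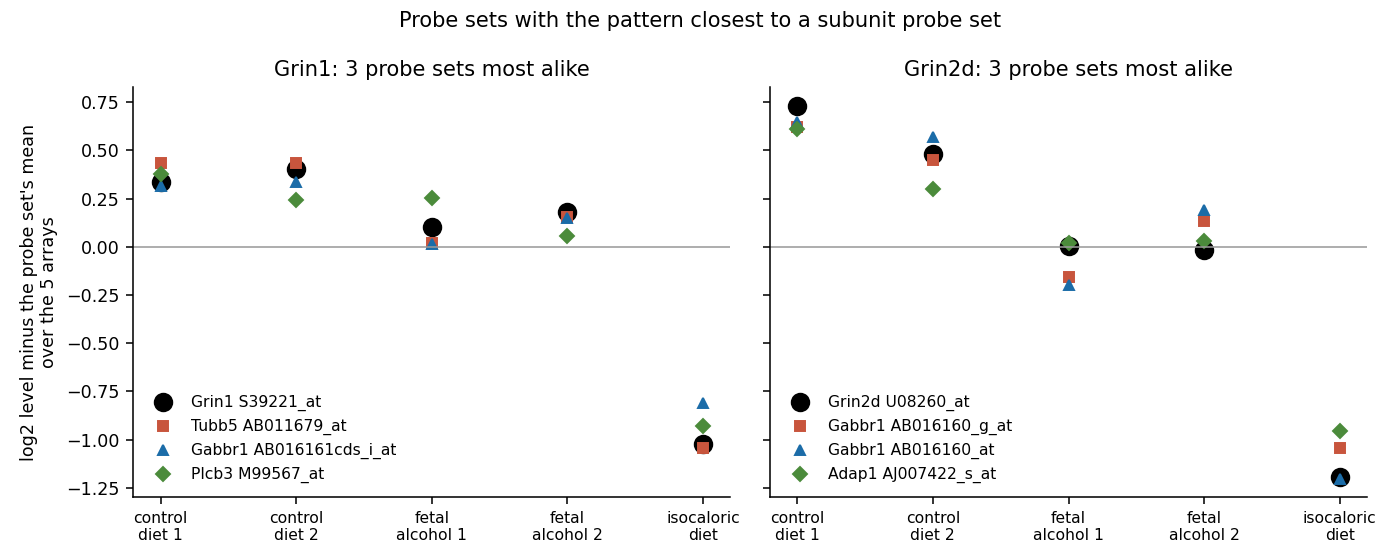
Log2 level minus the mean over the 5 arrays for Grin1 S39221_at and Grin2d U08260_at (black) and the 3 probe sets closest to each, by array. All 8 probe sets are lowest on the isocaloric array, which follows from choosing the closest sets by this likeness.

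The other NMDA receptor genes and the glycine site were represented by 4 tested genes of 12 listed, and by limma none passed in any comparison. For fetal alcohol minus control diet 1 was lower at an unadjusted p under 0.05, beside 3.95% of all probe sets tested. Grin3a, which encodes a subunit that lowers calcium flow, measured 103.7 and 91.0 under control diet, 86.7 and 106.0 after fetal alcohol and 101.8 with the isocaloric diet. Its 2 other probe sets had isocaloric minus control diet differences of -0.37 and -0.50, beside 0.06. Slc6a9, the glycine transporter GlyT1 that clears the co-agonist, measured 222.9 and 290.4 under control diet, 124.7 and 74.2 after fetal alcohol and 174.0 with the isocaloric diet. Both fetal alcohol arrays were lowest, with a log2 difference from control diet of -1.31 ± 0.29 (SE, limma adjusted p = 0.488). Kyat1, a kynurenine aminotransferase of the pathway to the glycine-site antagonist kynurenic acid, had 0.28 ± 0.47 for fetal alcohol and 0.73 ± 0.58 for isocaloric diet.

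Scaffolds of the postsynaptic density, which hold the receptor at the synapse, had 19 tested genes of 36. None passed; at an unadjusted p under 0.05, 2 were higher and 1 lower for fetal alcohol, and 1 higher and 2 lower for isocaloric diet, each against control diet. Their median was 0.02 for fetal alcohol minus control diet, with 10 positive and 9 negative, and -0.25 for isocaloric minus control diet, with 7 positive and 12 negative; over all 3174 genes tested the medians were 0.01 and 0.03. Shank1, a scaffold below the receptor complex, measured 96.1 and 102.6 under control diet, 73.6 and 33.0 after fetal alcohol and 46.1 with the isocaloric diet. Lin7b, an adaptor of a complex that carries the receptor, measured 47.7 and 64.2, then 125.2 and 105.7, and 44.8, a log2 difference of 0.93 ± 0.24 for fetal alcohol, while Dlgap3, a scaffold linking to Shank proteins, had -0.86 ± 0.31 for isocaloric diet. Dlg4, or PSD-95, measured 204.5 and 347.1, then 146.0 and 266.9, and 248.3, with overlapping groups.

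Kinases, phosphatases and calcium effectors of the receptor had 23 tested genes of 38, with medians of -0.01 for fetal alcohol and -0.03 for isocaloric diet against control diet. None passed, and none had an unadjusted p under 0.05 in the 3 comparisons. The largest differences were those of Camk2d (0.59 ± 0.33) and Prkcb (0.52 ± 0.32) for fetal alcohol and of Ppp1cb (-0.99 ± 0.58) and Prkaca (-0.66 ± 0.38) for isocaloric diet. Genes of glutamate supply and uptake had 7 tested of 15 and medians of 0.22 and 0.09, none passing and none with an unadjusted p under 0.05. Slc1a1, a neuronal glutamate transporter, had 0.43 ± 0.26 and Got1, an aspartate aminotransferase, 0.31 ± 0.23 for fetal alcohol. For isocaloric diet Got1 had 0.33 ± 0.28 and Slc1a2, the main astrocyte transporter, -0.27 ± 0.40.

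Activity-dependent genes, which NMDA receptor calcium entry can induce, had 18 tested of 25 and medians of 0.01 for fetal alcohol and -0.20 for isocaloric diet. None passed, with 1 lower in each at an unadjusted p under 0.05 (3.95% and 5.43% of all probe sets tested). Dusp1, a phosphatase of MAP kinases, had -1.07 ± 0.26 and Vgf, a secreted neuropeptide precursor, -0.45 ± 0.29 for fetal alcohol; for isocaloric diet Fos, an immediate early transcription factor, had -1.10 ± 0.32 and Vgf -0.61 ± 0.36. The other ionotropic glutamate receptors had 9 tested of 11. Their medians were -0.06 for fetal alcohol and -0.40 for isocaloric diet, and none passed. At an unadjusted p under 0.05, 1 was lower for isocaloric diet (5.43% of all probe sets tested). Grid1, a delta receptor, had the largest isocaloric difference of them, -0.94 ± 0.29, and Grik5, a kainate receptor subunit, -0.54 ± 0.30. For fetal alcohol Grik5 had -0.42 ± 0.25 and Grik3, another kainate subunit, -0.36 ± 0.23. The NMDA receptor subunit medians of -0.09 and -0.30 are over 9 probe sets, 4 of them of Grin1, and not over genes. With the brightest set per gene, as in the lists, the isocaloric differences were 0.17 (Grin1), 0.24 (Grin2b), -0.30 (Grin2c) and -1.80 (Grin2d). Whether the NMDA receptor subunits differ from the other ionotropic receptors was not tested.

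**Figure D5:**
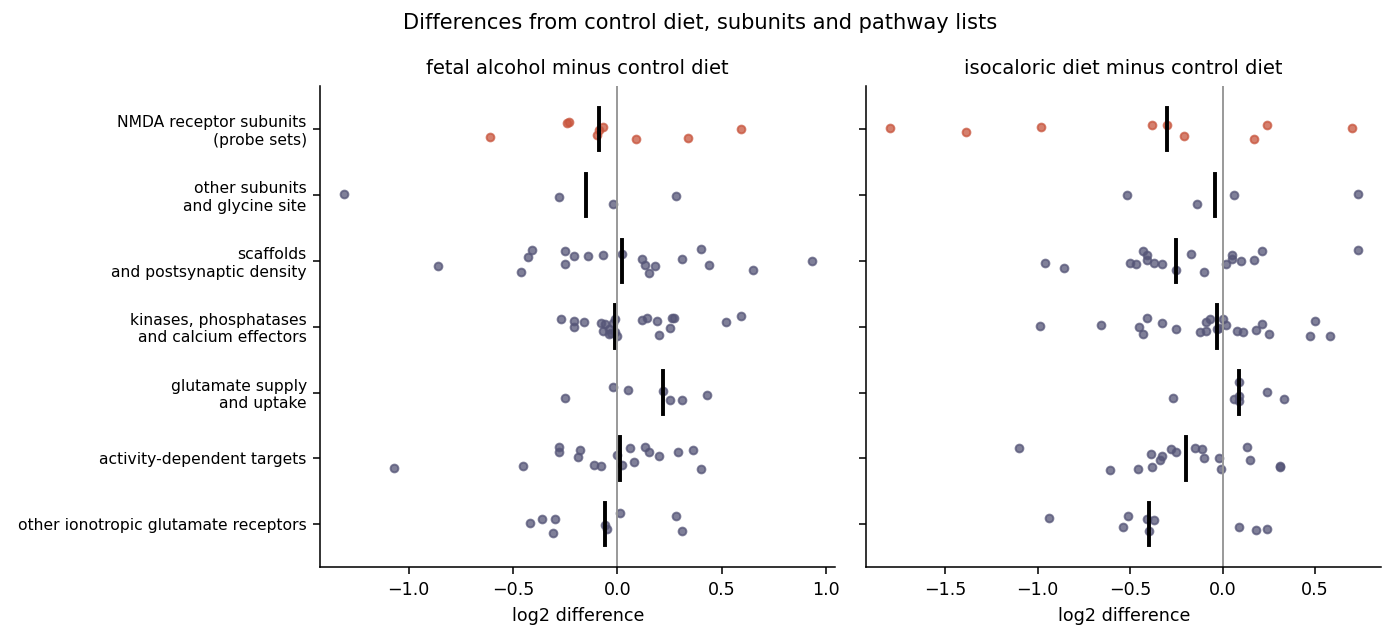
Log2 differences from control diet for the 9 NMDA receptor subunit probe sets (red) and for the tested genes of 6 pathway lists, 1 probe set per gene; black bars are medians. The isocaloric median of the NMDA receptor subunits (-0.30) is over probe sets, 4 of them of Grin1, and that of the other ionotropic receptors (-0.40) is over genes. No gene was past an adjusted p of 0.05.

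In tissue samples fewer cells of a type and less RNA per cell cannot be told apart. The summed intensity of 11 pan-neuronal markers was 7610 and 6973 under control diet, 7644 and 8151 after fetal alcohol and 6623 with the isocaloric diet. The 10 interneuron markers, relevant to Grin2d, summed to 4890 and 5220, then 5380 and 5010, and 4878. A sum is led by its brightest probe sets. The 7 hippocampal and forebrain markers summed to 2627 and 2637, then 3188 and 2933, and 2521. Within that list Neurod1 had log2 differences from control diet of -0.63 ± 0.32 for fetal alcohol and -0.91 ± 0.40 for isocaloric diet (limma adjusted p = 0.911 and 0.729). Neurod2 had -0.73 ± 0.25 and -0.85 ± 0.30 (limma adjusted p = 0.725 and 0.631). Both genes point the same way as Grin2d U08260_at, while Nrgn had 0.32 ± 0.20 and -0.06 ± 0.25. Calb1 (0.52 and 0.76), Lhx2 (0.26 and 0.23) and Grik4 (0.31 and 0.24) were higher in both comparisons. Of the 6 tested markers of that list 4 were positive and 2 negative for fetal alcohol, with a median of 0.28. For isocaloric diet 3 were positive and 3 negative, with a median of 0.08. The 10 astrocyte markers summed to 6354 and 6073, then 5948 and 5756, and 6197. The 8 choroid plexus markers summed to 7907 and 7984 under control diet, 2905 and 1142 after fetal alcohol and 8085 with the isocaloric diet, and the 11 markers of meninges and vessels to 4308 and 6353, then 5103 and 2209, and 3380. The 7 oligodendrocyte markers ran from 658.5 on the isocaloric array to 807.0, and the 7 microglia markers from 370.7 to 666.7, with Csf1r below the offset on all 5 arrays. Their part in the subunit values was not tested.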

How the data were processed

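The authors deposited 1 intensity for each of 8799 probe sets on 5 single-colour arrays. The processing software was not given in the sources used here. Trimmed means (2% at each end) lay between 150.19 and 150.22, a ratio of 1.0002, so under a limit of 1.1 the deposited intensities were kept. Neither detection calls nor scan dates were used here, and the number of arrays limits the precision.

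After 59 control probe sets were left out, intensities became log2(intensity + 10.605), the offset being the 20th percentile. The 5244 of 8740 probe sets at or above the 40th percentile of mean log2 were tested. One model over all 5 arrays was fitted with limma 3.58.1 (R 4.3.3; lmFit, eBayes with trend, 2-sided, Benjamini-Hochberg), with 2 residual and 6.30 prior degrees of freedom; errors are SEs of this fit. It was tested on simulated data. Genes were named only from the 7006 probe sets with 1 symbol (308 had several, 1426 none), current symbols through the gene identifier for 6985. Lists used the brightest probe set per gene. From each pathway list the text names the 2 genes with the largest difference from control diet in each of both comparisons, and Grin3a, Dlg4 and marker genes chosen after their values were seen; the likeness rule names 3 probe sets. The members and lists were chosen with earlier results of these data known. Replicate numbers are names: deviations of same-numbered arrays correlate at -0.113. Alternatives covered scaling, offset, filter, variance trend, replicate block and leaving out each array.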

Additional observations from a re-analysis of the deposited data

How the results depend on the processing

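No member probe set passed an adjusted p of 0.05 under any alternative, except Grin2d U08260_at for isocaloric minus control diet, where leaving out 1 array gave counts from 0 to 1. Of 309 single probe set values over the alternatives, 299 kept direction and call, 2 gained a call and 8 changed sign, all 8 with 1 array left out. With 1 array left out, fetal alcohol minus control diet ran from -0.35 to 0.54 for Grin1 S39221_g_at, from -0.30 to 0.11 for L19708_at and from -0.20 to 0.056 for U11418_s_at. Fetal alcohol minus isocaloric diet ran from -0.20 to 0.044 for S39221_g_at and from -0.06 to 0.016 for Grin2d D13213_s_at, and isocaloric minus control diet from -0.28 to 0.61 for S39221_g_at. The subunit ratio of Grin2a over Grin2b differed by -0.42 with an offset of 50 and -0.86 with 1. Grin2c over Grin2b differed by -0.34 with an offset of 50 and -0.091 with the mean of the probe sets, and Grin2c over Grin1 by 0.33 with that mean, against -0.18 with the brightest probe sets. With 1 array left out Grin2b over Grin1 ran from -0.076 to 0.57, Grin2c over Grin1 from -0.59 to 0.23 and Grin2d over Grin1 from -1.28 to -0.14. The cause was not tested. The replicate block gave 0 members and 8 of all probe sets past the threshold. The crossed pairing, added after seeing the data, gave 0 and 21. Over all probe sets, scaling to equal medians gave 9 calls for fetal alcohol minus control diet and 3 for fetal alcohol minus isocaloric diet, quantile normalization 1 and 3, and an offset of 50 gave 1 and 1, against 0 as deposited. Without fetal alcohol replicate 1 there were 17, 10 and, for isocaloric minus control diet, 11 calls, and without replicate 2 there were 25, 12 and 13. Leaving out either control diet array in turn gave 0 in all 3 comparisons. With 2 arrays a group, and 1 for isocaloric diet, small differences of dim probe sets cannot be seen.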
